A study of Mus musculus with 6 samples.

Results

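The genes described here encode proteins that detect DNA damage, signal it to the cell cycle and repair it. They were taken from a list of 34 damage signalling, Fanconi, end joining, recombination, excision and mismatch repair genes, of which 31 have a row among the 22180 genes of the array table. Xrcc2, Rbbp8 and Fanca are not analysed here. The list names genes by their function. A gene's row is its probe set with a single gene symbol and the highest mean over all 6 arrays. Of the 31 genes only Atr had more than 1 such probe set. Its dimmer one differed by 0.07 on the log2 scale and the one used by 0.14.

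The knockout mice carried a tamoxifen-inducible conditional knockout of Ctcf. Its product is a DNA-binding protein with zinc fingers that anchors chromatin loops and acts at insulators. They were compared with WT mice, with 3 arrays of each genotype. All mice were 8-week-old males. They were given 2 mg of tamoxifen by intraperitoneal injection on each of 3 days, and marrow was taken 24 hours after the last dose. The series' design text names CreER mice beside the knockout and the labels call the controls WT, so it is unclear whether CreER was present in the control mice. The labels name neither the promoter that drives CreER nor the deleted exons of Ctcf. The cells were LSK cells, sorted from marrow as lineage-negative, Sca-1-positive cells with high c-Kit, a marrow fraction made up of stem cells and multipotent progenitors. Each array is labelled a biological replicate of sorted LSK cells. Nothing in the labels says whether an array holds 1 mouse or a pool, and p-values measure the spread between these arrays.

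A double-strand break is sensed by the MRE11-RAD50-NBN complex and by the Ku heterodimer, and single-stranded DNA at stalled forks is sensed through ATR and its activator TOPBP1. The kinases ATM and ATR pass the signal to CHEK2 and CHEK1, which delay the cell cycle while the lesion is repaired. Homologous recombination, which needs BRCA1 and BRCA2, copies the sister chromatid and so works in cells that have replicated their DNA. End joining by Ku, DNA-PKcs and ligase IV needs no template and is the route open to resting cells. Quiescent haematopoietic stem cells are known to depend largely on end joining, and mice that lack Atm or Lig4 function are known to lose stem cell function with age. Many recombination and Fanconi genes are transcribed under E2F control and peak as cells enter S phase.

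Ctcf, the targeted gene, stood at 7.58, 7.78 and 7.86 on the log2 scale on the 3 knockout arrays, against 8.35, 8.59 and 8.73 on the 3 WT arrays. All 3 knockout arrays lay below all 3 WT arrays, at 56.7% of the WT level (log2 difference -0.82, limma adjusted p = 0.104, exact two-sided permutation p = 0.1, the smallest that 3 arrays against 3 can give). Of 12 marker genes listed for LSK cells 10 were measured, and Ly6a, which encodes Sca-1, is not analysed here. Kit, which encodes c-Kit, was at 10.15 ± 0.05 in the knockout and 10.38 ± 0.24 in WT (SD, n = 3 each, limma adjusted p = 0.727). Its groups did not overlap, but knockout replicate 3 at 10.21 and WT replicate 3 at 10.22 nearly met. Of all genes 5.32% were lower without overlap. Cd34 was at 11.95 ± 0.14 in the knockout and 11.97 ± 0.05 in WT (SD, n = 3 each). The array medians over all probe sets lay between 5.99 and 6.07. Across all 22180 genes 16 passed a Benjamini-Hochberg adjusted p of 0.05 by limma, 6 of them higher (0.0271%) and 10 lower (0.0451%) in the knockout. Leaving out knockout replicates 1, 2 and 3 in turn gave 0, 7 and 4 such genes, and leaving out WT replicates 1, 2 and 3 gave 4, 5 and 8. Without knockout replicate 1 there were 1725 genes at an unadjusted p under 0.05.

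No damage signalling or repair gene passed the test over all genes, and most of the differences were small and positive. Of the 31 genes, 25 had a positive and 6 a negative difference between knockout and WT. That is 80.6% positive, where 54.7% of all genes and 60.4% of genes above the median of all genes' means were. The median of the 31 was 0.14 on the log2 scale, against 0.02 over all genes and 0.04 over these brighter genes. Differences of the 31 ran from -0.17 for Mdc1 to 0.56 for Brca1. By limma 0 of 31 passed an adjusted p of 0.05, where 0.0721% of all genes passed, and the lowest adjusted p was 0.496. An unadjusted p under 0.05 was found for 5 genes, Brca1, Rad51c, Brca2, Xrcc1 and Topbp1, all higher in the knockout. These are 16.1% of the 31, where 5.03% of all genes and 6.98% of genes above the median of all genes' means were higher at the same p. None was lower, where 3.08% of all genes were. The 2 groups did not overlap for 4 of the 31, all higher in the knockout, or 12.9%, where 7.96% of all genes and 10.8% of the brighter genes did so.

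The count of 5 depends on single arrays. Leaving out knockout replicate 2 gave 0 such genes and leaving out knockout replicate 3 gave 2. Leaving out WT replicates 1, 2 and 3 in turn gave 2, 1 and 11. The median of the 31 was 0.07 without knockout replicate 2, 0.09 without WT replicate 1 and 0.20 without knockout replicate 1. Centred on the median of the brighter genes, 21 of 31 differences were positive (67.7% against 80.6%) and 3 genes had an unadjusted p under 0.05. The 95% interval of the difference lay wholly between -1 and 1 for 30 of the 31 genes, and only that of Brca1 reached past it, to 1.04. Such an interval was also found for 21631 of all 22180 genes and for 10742 of the 11090 brighter genes. In sorted bulk cells, fewer cells of a type that transcribes a gene and less of its RNA per cell cannot be told apart.

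**Figure D1:**
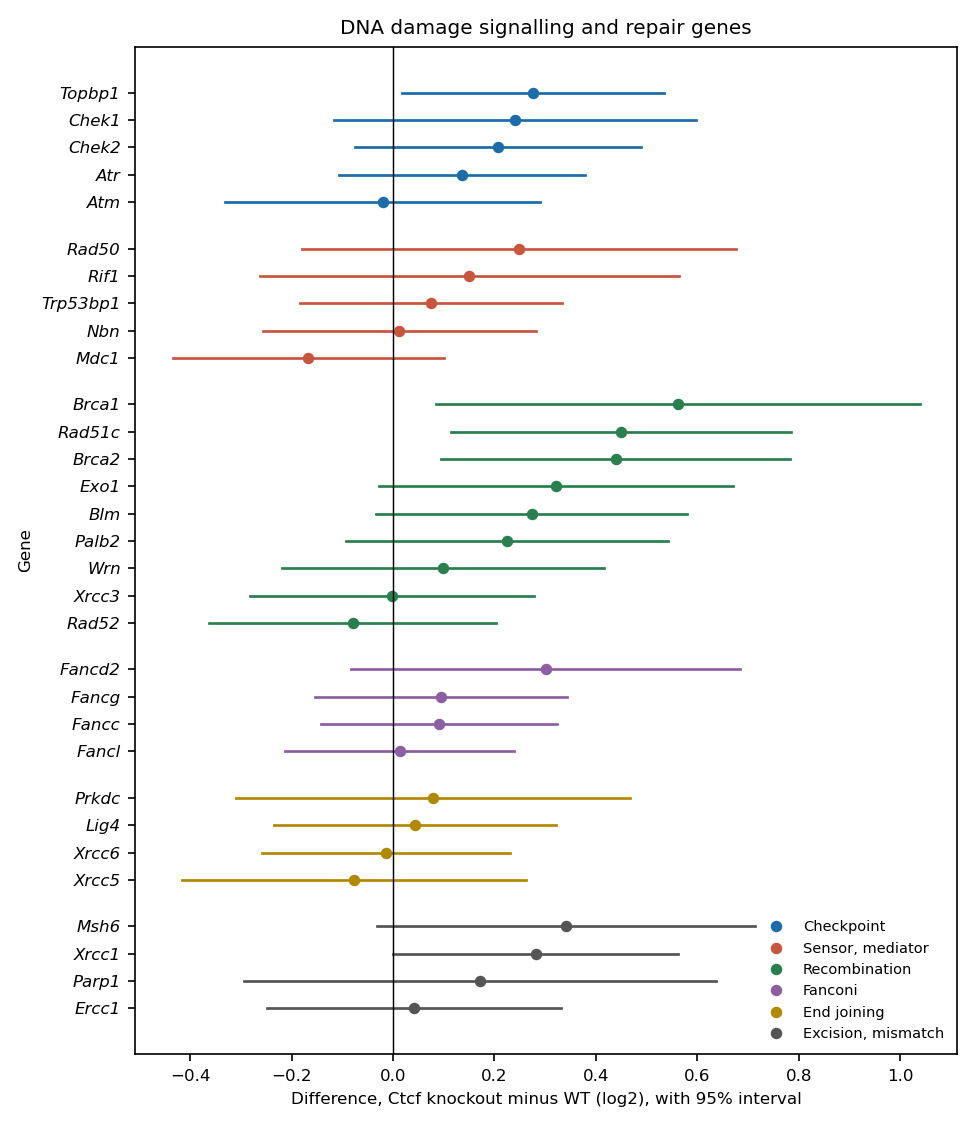
Differences of the 31 genes between Ctcf knockout and WT LSK cells on the log2 scale (x axis), ordered by role, with points for the limma estimate and lines for the unadjusted 95% interval. Brca1, Rad51c and Brca2 lie farthest to the right, at 0.56, 0.45 and 0.44, and the 4 end joining genes lie between -0.08 and 0.08.

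**Figure D2:**
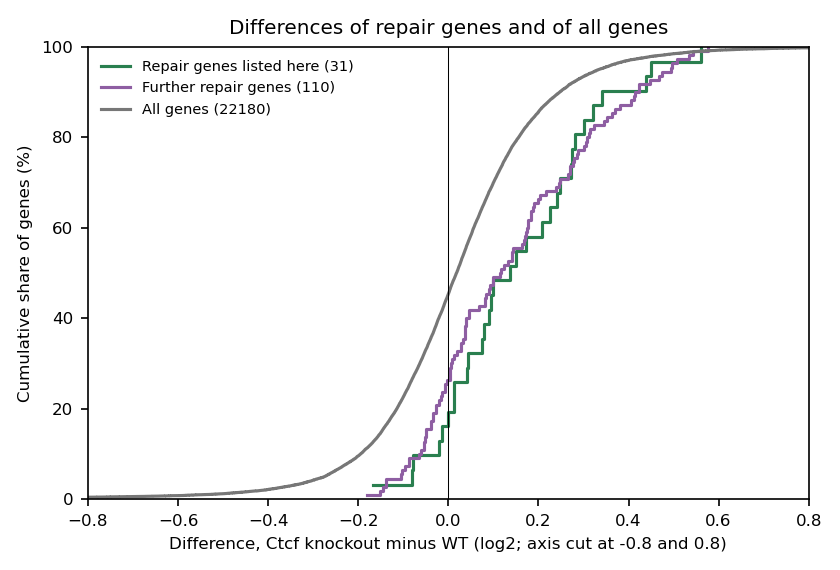
Cumulative share of genes (y axis, percent) by their difference between Ctcf knockout and WT (x axis, log2), for the 31 genes described here, 110 further repair genes and all 22180 genes. The median is 0.14 for the 31 genes, 0.12 for the further repair genes and 0.02 for all genes; values beyond 0.8 in either direction are not drawn.

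The 3 largest differences of the 31 were those of recombination genes. The 9 measured members had a median difference of 0.27, with 7 positive and 2 negative, 0 called by limma over all genes and 3 at an unadjusted p under 0.05, all higher in the knockout. Brca1, the ubiquitin ligase subunit that steers broken ends towards resection, was at 7.26, 7.92 and 7.59 in the knockout, against 6.84, 6.82 and 7.42 in WT. Knockout replicate 2 was the highest array, and the groups overlapped because WT replicate 3 lay above knockout replicate 1. The difference was 0.56 (SE 0.21, limma adjusted p = 0.556), or 1.48-fold. Brca2, a mediator of homologous recombination, was at 8.47, 8.79 and 8.57 in the knockout, against 8.11, 7.96 and 8.45 in WT. The groups did not overlap, but the lowest knockout array and WT replicate 3 were only 0.02 apart, and the difference was 0.44 (SE 0.15, limma adjusted p = 0.522).

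Rad51c, which works in homologous recombination, stood at 7.04, 7.22 and 7.03 in the knockout, against 6.71, 6.36 and 6.88 in WT. All 3 knockout arrays lay above the WT arrays, and WT replicate 2 was the lowest of the 6 (difference 0.45, SE 0.15, limma adjusted p = 0.496). Exo1, the exonuclease of long-range resection and mismatch repair, was at 8.26, 8.33 and 8.39 in the knockout, against 7.99, 7.71 and 8.31 in WT (difference 0.32, limma adjusted p = 0.642). Blm, the helicase mutated in Bloom syndrome that dissolves recombination intermediates, differed by 0.27, and Palb2, the partner that joins BRCA1 to BRCA2, by 0.22. For both, WT replicate 3 reached the knockout level and WT replicates 1 and 2 lay below every knockout array. Palb2 was at 7.46, 7.46 and 7.48 in the knockout, against 7.06, 7.12 and 7.54 in WT. Blm was at 8.84, 8.92 and 8.84 in the knockout, against 8.49, 8.43 and 8.87 in WT.

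Other recombination genes had differences near 0. Wrn, the helicase mutated in Werner syndrome, differed by 0.10 (95% interval -0.22 to 0.42). Xrcc3, whose product pairs with RAD51C, differed by 0.00 (95% interval -0.28 to 0.28), and Rad52, a single-strand annealing factor, by -0.08 (95% interval -0.36 to 0.20). The 2 partners of the RAD51C-XRCC3 complex were measured at 0.45 and 0.00, with intervals that overlap between 0.12 and 0.28. The difference between the 2 genes was not tested.

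**Figure D3:**
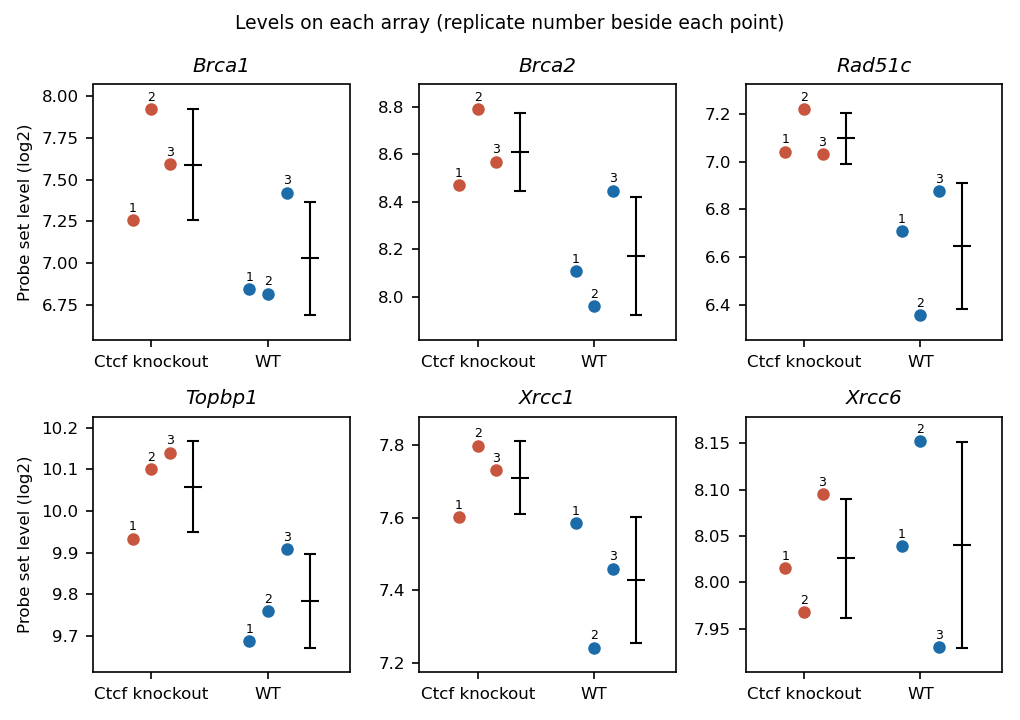
Probe set levels (y axis, log2, with a scale of its own in each panel) of the 5 genes with an unadjusted p under 0.05 and, for contrast, Xrcc6, on the 3 Ctcf knockout arrays (left) and the 3 WT arrays (right), with replicate numbers and the mean ± SD of each group (n = 3). WT replicate 3 is the highest WT array for Brca1, Brca2, Rad51c and Topbp1, and the groups of Xrcc6 overlap fully.

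Promoter sequence was looked at for what these genes share beyond their function. RefSeq promoter windows on GRCm38.p6, 250 bases before to 50 after an annotated start, were found for 24 of the 31 genes, in 26 windows. An E2F core was searched on both strands by its spellings TTCCCGC and TTGGCGC, and likewise TTCGCGC and also TTGCCGC, which can overlap each other. It was present in 17 of the 26 windows, or 65.4%, where 9.57% of all 32851 windows hold it. The core was likewise in 20 of 31 windows of S phase genes, or 64.5%, and in 36 of 111 windows of further repair genes, or 32.4%. The windows of these genes are rich in G and C (median 60.2%, against 52.7% over all windows), and so are the searched words. Among windows with at least 55% G and C, 16 of 22 held the core, or 72.7%, against 17.4% of all such windows. The windows shown are those of the 5 genes with an unadjusted p under 0.05 and of Xrcc6 and Mdc1, which hold the core although their differences are not positive. Rad51c has a further window, not shown, that also holds it. Capitals mark the E2F core, sequences run 5′ to 3′ on the gene's strand, and positions count from the annotated start.
Brca1, chr11:101551906-101552205, minus strand: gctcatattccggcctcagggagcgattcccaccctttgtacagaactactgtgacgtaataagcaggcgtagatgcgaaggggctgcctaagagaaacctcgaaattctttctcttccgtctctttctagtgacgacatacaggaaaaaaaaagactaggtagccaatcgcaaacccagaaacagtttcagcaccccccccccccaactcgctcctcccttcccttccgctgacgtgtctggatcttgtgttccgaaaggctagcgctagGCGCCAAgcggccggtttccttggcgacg
Brca2, chr5:150522371-150522670, plus strand: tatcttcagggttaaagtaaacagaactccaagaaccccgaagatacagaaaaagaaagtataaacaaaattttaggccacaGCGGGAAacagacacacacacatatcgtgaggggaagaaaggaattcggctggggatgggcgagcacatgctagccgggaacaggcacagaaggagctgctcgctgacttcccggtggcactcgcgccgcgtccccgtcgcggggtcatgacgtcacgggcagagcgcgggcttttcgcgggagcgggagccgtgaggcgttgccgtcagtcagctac
Rad51c, chr11:87404905-87405204, minus strand: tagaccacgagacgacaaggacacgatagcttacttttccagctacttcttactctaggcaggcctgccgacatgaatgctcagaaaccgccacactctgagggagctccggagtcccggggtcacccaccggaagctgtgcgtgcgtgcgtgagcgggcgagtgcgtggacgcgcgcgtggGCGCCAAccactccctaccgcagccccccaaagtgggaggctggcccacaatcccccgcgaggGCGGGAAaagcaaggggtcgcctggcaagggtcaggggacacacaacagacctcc
Topbp1, chr9:103305077-103305376, plus strand: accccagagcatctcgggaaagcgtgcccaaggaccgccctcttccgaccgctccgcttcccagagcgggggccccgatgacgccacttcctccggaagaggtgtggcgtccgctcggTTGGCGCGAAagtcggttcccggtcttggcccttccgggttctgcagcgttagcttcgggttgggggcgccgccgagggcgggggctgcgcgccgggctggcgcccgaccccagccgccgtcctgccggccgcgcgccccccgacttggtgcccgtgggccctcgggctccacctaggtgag
Xrcc1, chr7:24546449-24546748, plus strand: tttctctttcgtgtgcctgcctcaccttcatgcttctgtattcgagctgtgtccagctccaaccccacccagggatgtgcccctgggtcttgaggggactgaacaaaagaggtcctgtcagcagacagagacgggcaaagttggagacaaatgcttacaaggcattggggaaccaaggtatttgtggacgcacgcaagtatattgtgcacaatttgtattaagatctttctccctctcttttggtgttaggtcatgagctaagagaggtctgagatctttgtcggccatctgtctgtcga
Xrcc6, chr15:82016119-82016418, plus strand: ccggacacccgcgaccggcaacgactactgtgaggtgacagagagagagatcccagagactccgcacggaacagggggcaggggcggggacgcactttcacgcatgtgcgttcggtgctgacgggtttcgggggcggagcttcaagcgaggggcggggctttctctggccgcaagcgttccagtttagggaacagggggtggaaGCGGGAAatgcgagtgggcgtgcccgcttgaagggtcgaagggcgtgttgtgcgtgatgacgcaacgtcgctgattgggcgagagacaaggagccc
Mdc1, chr17:35841248-35841547, plus strand: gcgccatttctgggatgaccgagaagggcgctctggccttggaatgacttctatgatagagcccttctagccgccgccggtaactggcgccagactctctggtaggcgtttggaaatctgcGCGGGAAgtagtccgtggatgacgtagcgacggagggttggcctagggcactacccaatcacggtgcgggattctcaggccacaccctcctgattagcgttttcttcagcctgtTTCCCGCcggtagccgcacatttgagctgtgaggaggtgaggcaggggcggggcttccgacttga
In Brca1 the core began at position 22 and in Brca2 at -168. In the Rad51c window shown it began at -68 and again at -5, in Topbp1 at -132 and -129 in overlapping matches, in Xrcc6 at -46 and in Mdc1 at -129 and -15. Xrcc1 held none. The 15 genes with the core had a median difference of 0.21, with 11 positive, and the 9 without it a median of 0.09, with 7 positive. Both ranges overlapped widely, from -0.17 to 0.56 with the core and from -0.08 to 0.28 without it. The CHR element of mitotic genes, searched as TTTGAA or TTCGAA on both strands, was in 1 of the 26 windows, or 3.85%, against 19.2% of all windows. Its words are rich in A and T, and its share was not recounted among windows of like composition. CCAAT was in 46.2% of them, against 37.4% of all windows, on both strands. The core of the CTCF motif, as a word of 12 letters on either strand, was found in 0 of the 26, against 2.43% of all windows. For a word this rare, 26 windows are too few to tell these shares apart. These are matches of letters and show no binding.

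Of the 5 checkpoint genes among the 31, Topbp1 had the largest difference. It encodes the scaffold that activates ATR, and stood at 9.93, 10.10 and 10.14 in the knockout, against 9.69, 9.76 and 9.91 in WT. The groups did not overlap, with knockout replicate 1 and WT replicate 3 0.03 apart, and the difference was 0.28 (SE 0.11, limma adjusted p = 0.592). Chek1, the kinase that ATR activates, was at 8.47, 8.70 and 8.83 in the knockout, against 8.29, 8.27 and 8.73 in WT (difference 0.24, limma adjusted p = 0.760). Chek2, the kinase that ATM activates, was at 8.30, 8.17 and 8.09 in the knockout, against 7.92, 7.85 and 8.17 in WT (difference 0.21, limma adjusted p = 0.724). For both kinases the groups overlapped through WT replicate 3. The apical kinases themselves differed less, Atr by 0.14 (95% interval -0.11 to 0.38) and Atm by -0.02 (95% interval -0.33 to 0.29). The 5 checkpoint genes had a median of 0.21, with 0 called by limma and 1 at an unadjusted p under 0.05.

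Among the 5 sensors and mediators of double-strand breaks in the 31 genes, Rad50 had the largest positive and Mdc1 the largest negative difference. Rad50, the coiled-coil ATPase of the break-sensing complex, was at 8.19, 8.84 and 8.41 in the knockout, against 7.95, 8.32 and 8.42 in WT. The difference of 0.25 (SE 0.19, limma adjusted p = 0.801) was smaller than the SD between its knockout arrays, 0.33. Nbn, its partner that recruits ATM, differed by 0.01 (95% interval -0.26 to 0.28). Mdc1, the adaptor that binds phosphorylated H2AX, was at 7.97, 7.87 and 8.05 in the knockout, against 8.08, 8.00 and 8.29 in WT, the lowest difference of the 31 at -0.17 (SE 0.12, limma adjusted p = 0.782). The groups of Mdc1 overlapped. Trp53bp1, which protects ends from resection, differed by 0.07 and Rif1, its effector, by 0.15. The 5 genes had a median of 0.07, with 0 called by limma and 0 at an unadjusted p under 0.05.

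The Fanconi pathway repairs crosslinks between DNA strands. Of its 4 genes among the 31, Fancd2 had the largest difference, and the core complex genes among them differed by at most 0.09. Fancd2, the protein that the core complex ubiquitinates, was at 8.00, 8.33 and 8.12 in the knockout, against 7.77, 7.59 and 8.19 in WT. WT replicate 3 lay above 2 of the 3 knockout arrays, and the difference was 0.30 (SE 0.17, limma adjusted p = 0.702). Fancg, a core complex subunit, was at 8.07, 8.15 and 8.07 in the knockout, against 7.99, 7.88 and 8.14 in WT (difference 0.09). Fancc, another subunit, differed by 0.09 and Fancl, the ubiquitin ligase of the complex, by 0.01 (95% interval -0.21 to 0.24). Differences were positive for all 4 Fanconi genes (median 0.09), 0 called by limma and 0 at an unadjusted p under 0.05.

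Of the 6 roles among the 31 genes, end joining had the median difference closest to 0. Prkdc, the catalytic subunit of DNA-PK, was at 7.98, 8.27 and 8.54 in the knockout, against 7.98, 8.43 and 8.15 in WT, a difference of 0.08 (95% interval -0.31 to 0.47). Xrcc5, the Ku80 subunit that encircles DNA ends, was at 7.92, 8.24 and 7.76 in the knockout, against 7.91, 8.22 and 8.02 in WT, a difference of -0.08 (95% interval -0.42 to 0.26). Both genes varied more between replicates than between genotypes. Xrcc6, the Ku70 subunit, differed by -0.01 (95% interval -0.26 to 0.23) and Lig4, the ligase, by 0.04 (95% interval -0.23 to 0.32). The 4 genes had a median of 0.01, with 2 positive and 2 negative, 0 called by limma and 0 at an unadjusted p under 0.05. None of the 4 intervals reached 0.5 in either direction.

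Of the 31, 4 genes act in excision, single-strand break or mismatch repair, and among these Msh6 and Xrcc1 had the larger differences. Msh6, a mismatch recognition protein, was at 7.54, 8.04 and 7.69 in the knockout, against 7.27, 7.30 and 7.68 in WT (difference 0.34, SE 0.16, limma adjusted p = 0.643). Xrcc1, the scaffold of single-strand break repair, was at 7.60, 7.80 and 7.73 in the knockout, against 7.58, 7.24 and 7.46 in WT (difference 0.28, SE 0.12, limma adjusted p = 0.616). The groups of Xrcc1 did not overlap, with knockout replicate 1 and WT replicate 1 only 0.02 apart, and those of Msh6 overlapped. Parp1, which marks breaks with poly(ADP-ribose), varied widely, at 8.80, 9.40 and 8.82 in the knockout, against 8.51, 8.86 and 9.13 in WT (difference 0.17). Ercc1, a subunit of the nuclease of nucleotide excision repair, differed by 0.04 (95% interval -0.25 to 0.33). All 4 differences were positive, with a median of 0.23, 0 called by limma and 1 at an unadjusted p under 0.05.

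Genes of the wider repair machinery were compared in the same way. Of 123 further repair genes, listed by role, 110 were measured. Their median difference was 0.12, with 81 positive (73.6%) and 29 negative, where 54.7% of all genes and 60.4% of brighter genes were positive. By limma 0 of the 110 passed over all genes, with a lowest adjusted p of 0.365. Among the brighter genes are 108 of the 110. An unadjusted p under 0.05 was found for 17, all higher in the knockout (15.5%, against 5.03% of all and 6.98% of brighter genes). The groups did not overlap for 19 in the higher direction (17.3%, against 7.96% of all and 10.8% of brighter genes). They did not overlap for 2 in the lower (against 5.32% of all genes). Centred on the brighter genes, 64 of 110 differences were positive (58.2% against 73.6%) and 10 had an unadjusted p under 0.05. Leaving out knockout replicates 2 and 3 in turn gave 7 and 9 such genes in place of 17, and leaving out WT replicate 2 gave 6.

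By role, 7 of 26 recombination genes, 3 of 13 Fanconi genes, 2 of 10 end joining genes, 4 of 37 excision and mismatch genes, 1 of 12 mediators and 0 of 12 checkpoint genes had an unadjusted p under 0.05. The median differences of these roles, in that order, were 0.21, 0.13, 0.06, 0.04, 0.18 and 0.08. Among these further genes excision and mismatch, not end joining, had the median closest to 0. Lig1, the replicative ligase that also seals excision repair patches, had the largest difference at 0.58 (SE 0.21, limma adjusted p = 0.551). It was at 8.42, 9.06 and 8.75 in the knockout, against 8.04, 7.88 and 8.57 in WT, with overlap between WT replicate 3 and knockout replicate 1. Rad51ap1, a recombination factor, differed by 0.54, Neil3, a DNA glycosylase, by 0.50, and Polq, the polymerase of microhomology-mediated joining, by 0.47. Polq was at 7.47, 7.77 and 7.71 in the knockout, against 7.11, 7.04 and 7.37 in WT, without overlap (limma adjusted p = 0.404). Rpa1, the large subunit of the trimer that coats single-stranded DNA, was at 8.71, 8.93 and 8.79 in the knockout, against 8.28, 8.04 and 8.51 in WT. Its difference was 0.54 (SE 0.14, limma adjusted p = 0.365), and the groups did not overlap. Rpa3, the smallest subunit, differed by 0.51, and Rpa2, named after its values were seen, by 0.41, so that all 3 subunits had an unadjusted p under 0.05 and groups that did not overlap.

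Median differences of the cell cycle genes were larger than that of the repair genes on the same arrays. All 36 measured S phase genes were higher on average in the knockout (median 0.33), 0 called by limma and 13 (36.1%) at an unadjusted p under 0.05. At that p 5.03% of all genes and 6.98% of the brighter genes were higher. The groups did not overlap for 11 S phase genes (30.6%), all higher, where 7.96% of all genes and 10.8% of the brighter genes did so. Prim1, the primase, differed by 0.63 and Rrm1, a ribonucleotide reductase subunit, by 0.57. The 33 measured G2/M genes were also all positive (median 0.53), 0 called by limma and 17 (51.5%) at an unadjusted p under 0.05. Their groups did not overlap for only 3 (9.09%), near the share over all genes. WT replicate 2 was the lowest array for all 33, where it was so for 23.0% of all genes. Ccna2, cyclin A2, differed by 0.76, Ndc80, a kinetochore protein, by 0.74 and Mki67, the proliferation antigen, by 0.63.

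High and low arrays of the repair genes were in part those of the cell cycle genes and of the brighter genes as a whole. With each gene centred on its mean over the 6 arrays, the median of the 31 genes was -0.04, 0.15 and 0.10 on knockout replicates 1, 2 and 3, against -0.17, -0.06 and 0.06 on WT replicates 1, 2 and 3. The S phase medians were 0.07, 0.33 and 0.15 in the knockout, against -0.20, -0.42 and 0.11 in WT. In both lists knockout replicate 2 was the highest array, and WT replicate 3 lay above knockout replicate 1. The 11090 brighter genes, which hold 29 of the 31, put the 6 arrays in the same order as the repair genes over a smaller range, with medians of -0.0012, 0.050 and 0.012 in the knockout, against -0.037, -0.025 and 0.0044 in WT. The S phase genes differ from that order in WT replicate 2, their lowest array. The G2/M medians were 0.30, 0.48 and 0.03 in the knockout, against -0.23, -0.74 and 0.20 in WT, with WT replicate 2 the lowest. The 9 recombination genes had medians of 0.08, 0.18 and 0.12 in the knockout, against -0.24, -0.30 and 0.11 in WT. By contrast, the 4 end joining genes had -0.14, 0.07 and 0.11 in the knockout, against -0.05, 0.16 and -0.08 in WT, with WT replicate 2 the highest.

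**Figure D4:**
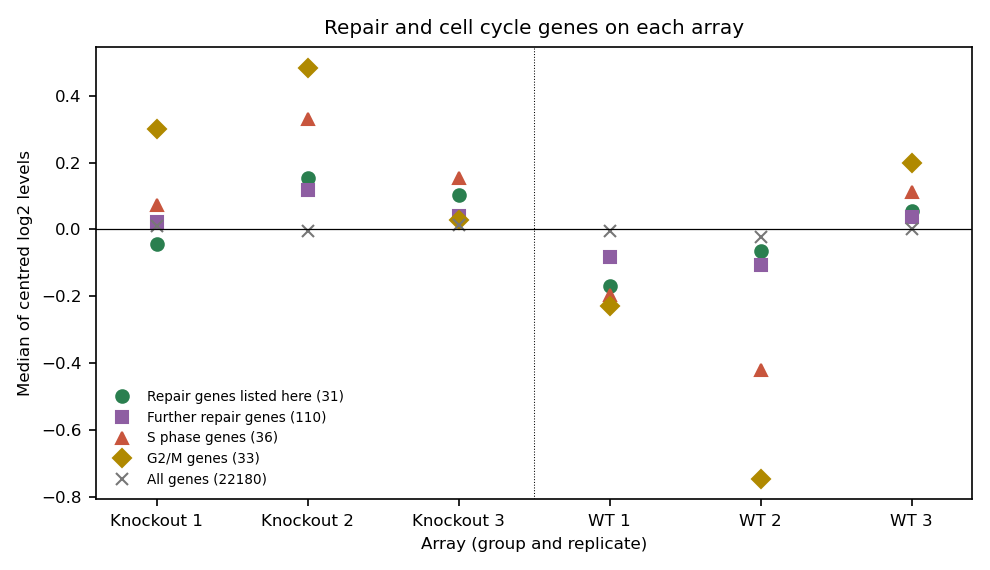
Median of gene-centred log2 levels (y axis) on each of the 3 Ctcf knockout arrays (left) and 3 WT arrays (right), for the 31 genes described here, further repair genes, S phase genes, G2/M genes and all genes. WT replicate 2 is lowest for S phase genes at -0.42, and WT replicate 3 lies at 0.06 for the 31 genes and 0.11 for S phase genes.

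The pattern over arrays can also be counted gene by gene. WT replicate 1 or 2 was the lowest of all 6 arrays for 21 of the 31 genes, or 67.7%, against 39.8% of all genes and 47.3% of the brighter ones. Knockout replicate 2 was the highest array for 15 of the 31, or 48.4%, against 20.4% of all genes and 31.1% of the brighter ones. WT replicate 3 was the highest WT array for 17 of 31, or 54.8%, against 35.3% of all genes. The range over the 3 WT arrays was larger than the difference between genotypes for 28 of the 31 genes, or 90.3%, against 82.3% of all genes. The SD was larger in WT than in the knockout for 21 of 31 genes, against 47.6% of all genes. Palb2 had an SD of 0.01 in the knockout and 0.26 in WT.

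With an array score of the S phase genes in the model, the median difference of the 31 genes was 0.03, with 19 positive, and 0 had an unadjusted p under 0.05. By limma the count over all genes was then also 0, with 953 genes at an unadjusted p under 0.05. The score itself was 0.10, 0.29 and 0.14 on the knockout arrays, against -0.20, -0.45 and 0.11 on the WT arrays, so part of the genotype difference is taken up by it. Brca1 was at 0.09 in that fit, Brca2 at 0.10, Rad51c at 0.12 and Msh6 at 0.02. Fancd2 was at -0.11 and Exo1 at -0.02. The absolute difference was smaller with the score for 19 of the 31 genes, and the share over all genes was not counted. Topbp1 was at 0.16 and Xrcc1 at 0.13, while Trp53bp1 was at 0.23, Rif1 at 0.26 and Mdc1 at -0.31, each farther from 0 than without the score.

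**Figure D5:**
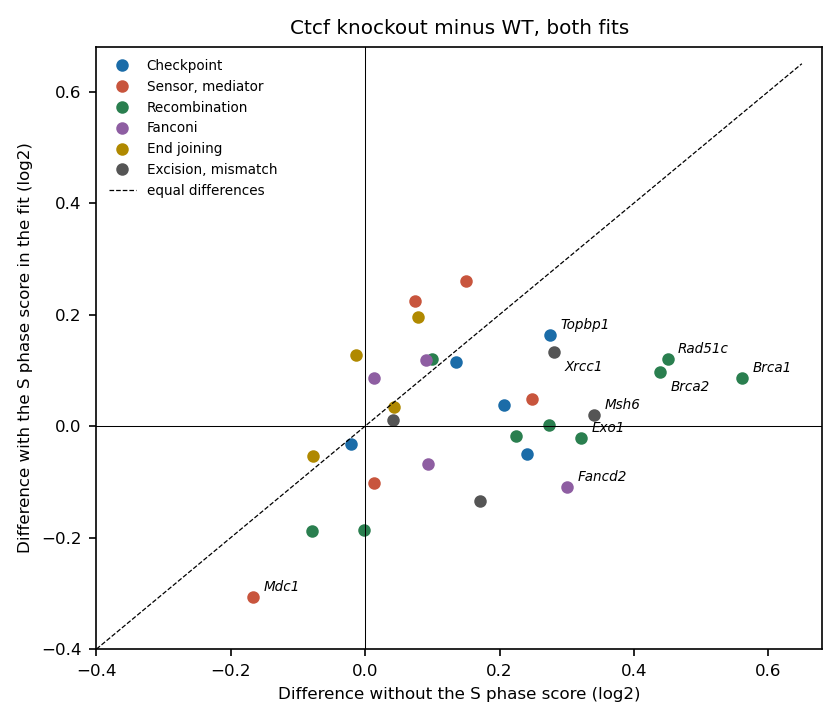
Differences of the 31 genes between Ctcf knockout and WT (log2) without (x axis) and with (y axis) an array score of S phase genes in the fit, coloured by role, with a dashed line where both are equal. Recombination genes on the right lie far below the line, with Brca1 at 0.56 and 0.09, and Mdc1 lies at the lower left at -0.17 and -0.31.

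Targets of p53, the transcription factor that ATM and CHEK2 activate after damage, differed mostly positively, with 4 in the other direction. Of 21 measured targets 17 differed positively (81%, against 54.7% of all genes), with a median of 0.10, and 0 were called by limma. At an unadjusted p under 0.05, 3 were higher (14.3%, against 5.03% of all genes) and 2 lower (against 3.08% of all genes). The groups did not overlap for 6 in the higher direction (28.6%, against 7.96% of all genes) and 2 in the lower (against 5.32%). Cdkn1a, the CDK inhibitor p21, was at 8.51, 8.84 and 9.19 in the knockout, against 7.99, 8.01 and 8.35 in WT, without overlap (difference 0.73, SE 0.18, limma adjusted p = 0.341). Trp53inp1, a p53-induced stress protein gene, was at 8.86, 8.77 and 8.73 in the knockout, against 9.40, 9.67 and 8.93 in WT, also without overlap and in the other direction (difference -0.55, SE 0.18, limma adjusted p = 0.489). The other targets at an unadjusted p under 0.05 were Sesn2 at 0.39, Tnfrsf10b at 0.27 and Phlda3 at -0.33. Mdm2, the ubiquitin ligase of p53, and Bbc3, which encodes PUMA, differed by 0.12 and 0.03. Sesn2, Tnfrsf10b, Phlda3, Mdm2 and Bbc3 were named after their values were seen.

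Signals of other cell types also differed between the arrays, and their part in the values of the repair genes was not tested except as stated. The 11 measured B and plasma cell genes were all negative (median -0.67), led by Tnfrsf17 at -1.53 and Cd79a at -1.25. Their summed signal on the log2 scale ran from 13.43 to 14.26 in the knockout, against 14.16 to 14.86 in WT. With an array score of these genes in the model, the median of the 31 genes was 0.06, and 0 had an unadjusted p under 0.05. Brca1 was then at 0.31, Brca2 at 0.29, Rad51c at 0.35 and Xrcc1 at 0.27. The absolute difference was smaller with this score for 23 of the 31 genes, against 19 with the S phase score. For neither score was the share over all genes counted.

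Of 11 mature neutrophil genes 9 were negative, with a median of -0.52, led by Ngp at -2.44 and Camp at -1.46, and a summed signal from 10.96 to 11.51 in the knockout, against 11.19 to 12.88 in WT. Of 5 measured erythroid genes, from a list of 7, 3 were positive, with a median of 0.08, led by Car1 at 0.56 and Car2 at 0.33, and a summed signal from 11.72 to 12.52 in the knockout, against 11.39 to 12.01 in WT. Of 8 measured T and NK cell genes, from a list of 9, 2 were positive, with a median of -0.07. Nkg7, at 0.68, and Cd3e, at -0.23, had the largest differences, and the summed signal ran from 10.90 to 11.35 in the knockout, against 10.21 to 10.79 in WT. That sum is largely the signal of Nkg7, the 1 gene of the 8 above the median of gene means, and 6 of the other 7 had a negative difference. The 10 LSK genes had a median of -0.08, with Flt3 at -0.42 and Gata2 at 0.34, and a summed signal from 13.40 to 13.61 in the knockout, against 13.53 to 13.79 in WT. By limma 0 genes of these 5 lists passed over all genes. An unadjusted p under 0.05 was found for 8 of 11 B and plasma cell and 4 of 11 neutrophil genes, all lower in the knockout. The same held for 1 of 5 erythroid and 1 of 8 T and NK cell genes, both higher. Of the 10 LSK genes 2 were higher and 1 lower at that p. Over all genes 5.03% were higher and 3.08% lower. Array levels carry no detection call, so no marker can be called absent.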

How the data were processed

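Gene expression was measured in 6 samples of sorted LSK cells on Affymetrix Mouse Gene 2.0 ST arrays, 3 of Ctcf knockout and 3 of WT mice. The authors deposited log2 levels per probe set. Per the submitters' processing notes these were made with RMA in oligo. Neither version, summary level nor genome build was stated. RMA subtracts a modelled background, makes the arrays' distributions equal and condenses probes into 1 value, so differences of dim probe sets come out too small.

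Of 41345 probe sets, 23521 had 1 gene symbol in GEO's platform annotation, 1814 had several and 16010 none here. Entrez identifiers of 23328 were found in RefSeq's GRCm38.p6 gene table, and 0 symbols changed. The brightest probe set stood for each of 22180 genes, with no filter on low values. Limma 3.58.1 in R 4.3.3 compared knockout with WT by lmFit and eBayes on all 6 arrays, with Benjamini-Hochberg adjustment over all genes and a threshold of 0.05. Differences are knockout minus WT, SDs are between 3 arrays, and the 95% intervals come from the moderated fit. Brighter genes are those above the median of gene means, 6.29. Array scores are means of centred list genes.

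The members, lists and tests were chosen with earlier results of these data known. Named genes were Ctcf, members with an unadjusted p under 0.05 or no overlap, the 2 largest differences per role, up to 6 further repair genes per direction, up to 2 genes of each other list, and Cdkn1a and Mki67. Other values are named to account for every member. Alternatives were a trended and robust eBayes, array weights, brighter genes only, a further quantile normalization, centring, the mean of probe sets, the replicate block, both array scores, each array left out and a threshold of 0.1. The G2/M score is an alternative chosen after seeing the data.

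On simulated data with 200 changed genes among 22180 (20 runs), recovery was 20.7% at a log2 change of 0.5 and 95.9% at 1, and 6.57% of calls were false. Groups of 3 arrays were not searched for outliers.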

Additional observations from a re-analysis of the deposited data

How the results depend on the processing

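No repair gene passed the adjusted threshold by limma under any of the alternatives run, the threshold of 0.1 included; the lowest adjusted p of the 31 genes lay between 0.305 and 1.00 over them, and their median between 0.03 and 0.20. Of 131 summary values 101 were labelled the same as in the main fit and 30 moved. Counts were judged by a factor of 1.5, medians by the spread between arrays, and Ctcf by its sign and call. Those labelled the same include the counts of members and of further repair genes called, which were 0 throughout.

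Genes called over all genes, 16, became 25 with trend and robust settings, 26 at a threshold of 0.1, 0 with the S phase score, 0 with the B and plasma cell score and 1 with the G2/M score, chosen after seeing the data. With 1 array left out they ran from 0 to 8. Members at an unadjusted p under 0.05, 5, became 3 with centring on the brighter genes and 0 with each of the 3 scores, and ran from 0 to 11 with 1 array left out. Further repair genes at that p, 17, became 10 with centring and 2 with each of the 3 scores, and ran from 6 to 24. Their median, 0.12, was 0.0041 with the S phase score and 0.033 with the G2/M score. The scores leave fewer residual degrees of freedom. Over all genes, 1799 had an unadjusted p under 0.05 in the main fit. With the S phase, B and plasma cell and G2/M scores these became 953, 876 and 1129.

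With the replicate number as a block, 7 genes were called, 4 members had an unadjusted p under 0.05, and no call on a member changed. The numbers are not shown to pair the samples: deviations of arrays with the same number correlated at 0.29, 0.016 and -0.14 across genes, for replicates 1, 2 and 3. Ctcf stayed between -1.01 and -0.74, always lower in the knockout and never past 0.05.

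Of 494 member values under alternatives 49 changed sign, for 18 members, of which Exo1 had the largest main difference, 0.32; the other 13 members kept their sign. With the S phase score these were Palb2 -0.018, Exo1 -0.022, Chek1 -0.050, Fancg -0.068, Nbn -0.10, Fancd2 -0.11, Parp1 -0.14 and Xrcc6 0.13. With the B and plasma cell score they were Rif1 -0.0058, Chek1 -0.049, Nbn -0.061, Prkdc -0.068, Xrcc6 0.016, Rad52 0.016 and Xrcc5 0.062. With the G2/M score they were Fancg -0.032, Parp1 -0.032, Nbn -0.046, Ercc1 -0.052, Atm 0.049 and Xrcc6 0.11. With array weights they were Ercc1 -0.0021, Xrcc6 0.014 and Atm 0.019, and with a further quantile normalization Nbn -0.0023. With centring they were Lig4 -0.013, Ercc1 -0.015, Fancl -0.042 and Nbn -0.043. With 1 array left out, Atm ran from -0.13 to 0.065, Nbn from -0.057 to 0.074, Xrcc3 from -0.084 to 0.075, Wrn from -0.020 to 0.20, Fancl from -0.024 to 0.044, Xrcc5 from -0.21 to 0.030, Xrcc6 from -0.069 to 0.042, Lig4 from -0.022 to 0.14, Prkdc from -0.061 to 0.22, Parp1 from -0.024 to 0.32 and Ercc1 from -0.026 to 0.17. The causes were not tested. Precision is limited by 3 arrays per group.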
